A study of Drosophila melanogaster with 2 samples.

Results

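Of 30000 regions called by chromatin immunoprecipitation and sequencing (ChIP-seq) of CG10631-eGFP, 994 had their summit inside protein-coding sequence (CDS) or a 3' UTR and more than 500 bp from any annotated transcription start site. CDS summits numbered 378 and 3' UTR summits 616. The summit is the position that the deposited list marks as the point source of a region, and in all 378 CDS regions and 611 3' UTR regions it was the middle of the region. It was placed on the gene annotation of the dm6 genome, and a summit in both kinds of sequence was counted as CDS. The 994 regions formed 941 separate stretches, because some regions overlapped each other.

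The chromatin came from whole Drosophila melanogaster collected as white prepupae, the stage at which the larva stops moving and metamorphosis begins. The animals belonged to a transgenic line that stably carries CG10631 with a GFP tag at its C terminus, and, per the labels' description, the tag was the target of the antibody. Another label field gives the antibody as CG10631. Their age is given as unknown, sex was not collected, and the labels name neither a strain background nor the promoter that drives the fusion. The only group consisted of 2 biological replicates, numbered 2 and 3 in the labels, both tagged and untreated. All cells of the animal were pooled, so a region bound in few cells and a region bound weakly in many cannot be told apart. Control and untagged samples were not analysed here.

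CDS is the translated part of a gene, and the 3' UTR is the stretch of the last exons between the stop codon and the point where the transcript is cut and polyadenylated. Transcription factors bind DNA mostly at promoters and enhancers, which in flies lie largely upstream of genes and in introns. Exons can also hold enhancers, and a 3' UTR often lies next to the start of the following gene. CG10631 encodes a protein that its annotation calls uncharacterized.

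The DNA under 10 summits is shown first, so that coding and untranslated positions can be compared as sequence. They are the 5 strongest 3' UTR summits, 4 of the 5 strongest CDS summits, and Reph, a weaker CDS summit shown because it lies at an exon end. Each run gives 30 bases around a summit, 5' to 3' on the strand of the host gene, from the RefSeq copy of the dm6 genome. In the CDS runs, capitals mark bases that are coding.
bif, chrX:11681731-11681760, plus strand: GGCGACAATCAGTAGCACTAGTCAAAAGAG
CG10357, chr3L:3616516-3616545, plus strand: ACCCTACGGCCAGGGCAGGAACTCACATTT
Ubr1, chrX:16967566-16967595, minus strand: CAAGCGCCAGGCGGGCACACTAGACCGCTC
Snx27, chrX:5737207-5737236, minus strand: CGGCCAAGTTTCCGAGGGGGGTCAACTGCG
Reph, chr2L:3806798-3806827, plus strand: TCGAAAAATTTTATGCGTAAAAAGgtgcga
The run of Reph crosses the end of its coding exon, where the capitals stop. In the 3' UTR runs, capitals mark the motif AATAAA or its reverse complement TTTATT, and all other bases are in lower case.
Ance-3, chr2L:13955906-13955935, plus strand: gattcatgaagtagattcagacacctactc
CG7872, chrX:15579796-15579825, plus strand: cattcgcgtgtttcctaactaacttgacta
sv, chr4:1113300-1113329, plus strand: agctctgaataccctttcaaaaactgctgc
CG33307, chr2L:13839927-13839956, minus strand: taTTTATTtaaaagattttttacaagtttg
CG4456, chr3L:9373451-9373480, plus strand: acgtcgctatatttctgAATAAAtgaagat
Of the runs shown, those of CG33307 and CG4456 held the motif. The Snx27 run had 66.7% G and C and the CG33307 run 13.3%. The capitals mark letters and not a tested site.

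Strength was compared through the authors' signal value of each region, which is in the peak caller's own units and ranks regions within a list only. A shorter deposited list holds the regions that passed the authors' comparison of the replicates by irreproducible discovery rate (IDR), and these were the strongest of the merged list by signal. It contained 10 of the 378 CDS regions (2.65%, Wilson 95% interval 1.44 to 4.80) and 61 of the 616 3' UTR regions (9.90%, 7.79 to 12.5), beside 8399 of all 30000 regions (28.0%). Regions outside both classes were in it at 28.7%. The CDS share was 5.03% when any overlap of 1 bp with a region of the IDR list was counted. By the same overlap rule, it was 4.06% to 4.81% for CDS regions of a single replicate's own list. The IDR list in that setting still came from both replicates. The CDS share stayed below the 3' UTR share under those settings. Members of both classes thus lay mostly in the weaker part of the list, CDS regions more so than 3' UTR regions. The intervals cover counting error only, regions of a library are not replicates, and with a single group no test between samples could be made.

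Median signal was 35.0 in CDS regions (quartiles 32.2 and 41.9), 39.1 in 3' UTR regions (33.5 and 52.9) and 54.7 over the whole list (37.9 and 112). The highest CDS region reached 365 and stood at rank 1750, and the highest 3' UTR region reached 838 at rank 335. The floor of the merged list was 30.1, so the middle of the CDS class sat close to the weakest value recorded. In blocks of 3000 regions ordered by signal, the CDS share was 0.0667% in the strongest block and 3.73% in the weakest. The 3' UTR share was 0.367% in the strongest block and 4.03% in the weakest. From block to block the 3' UTR count never fell, from 11 regions in the first to 121 in the last, whereas 23 CDS regions in all stood in the stronger 15000 and 355 in the weaker 15000.

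**Figure D1:**
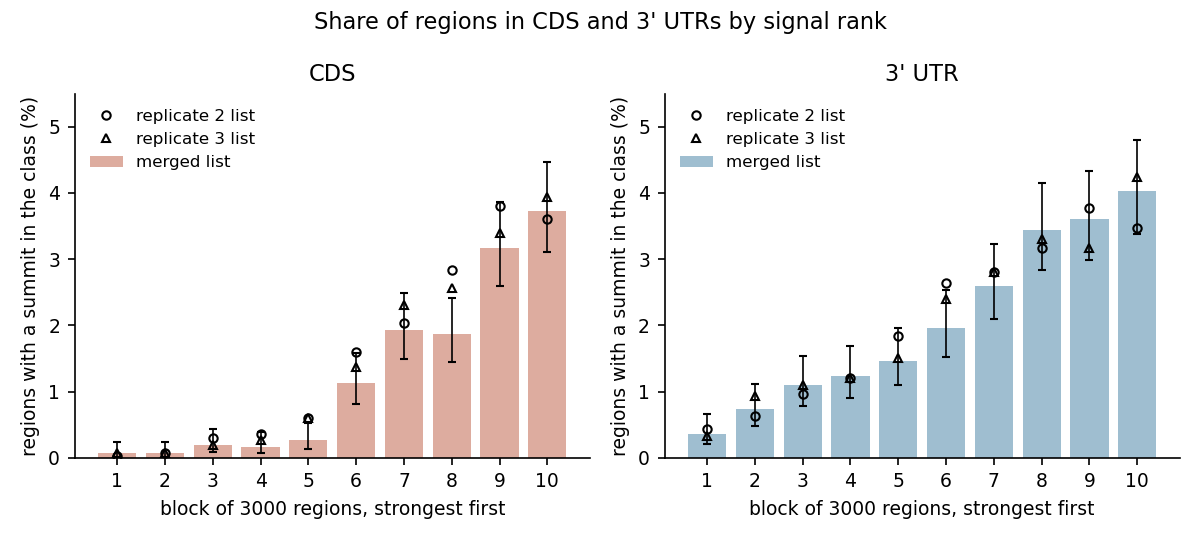
Share of regions (%) with a summit in CDS (left) or a 3' UTR (right) for each block of 3000 regions from strongest (1) to weakest (10); bars are the merged list with Wilson 95% intervals, circles and triangles the lists of replicates 2 and 3. In the merged list the CDS share is 0.0667% in both of the strongest blocks and 3.73% in the weakest, and the 3' UTR share is 0.367% in the strongest and 4.03% in the weakest; in replicate 2 both shares are highest in block 9.

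The replicate lists, each of 30000 regions called on 1 replicate, gave like counts. Replicate 2 had 457 CDS and 627 3' UTR summits, and replicate 3 had 443 and 629. Among the strongest 8399 of each list were 10 CDS and 58 3' UTR summits in replicate 2, and 10 and 63 in replicate 3. The best-ranked CDS summit stood at 1742 in replicate 2 and 1931 in replicate 3, behind 3' UTR summits at 298 and 394. The order of the classes was the same in each replicate.

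Both classes were compared with the amount of sequence they could occupy. CDS more than 500 bp from a start site made up 13.9% of the chromosome arms and held 1.26% of the merged regions, 20.3 regions per Mb. Eligible 3' UTR sequence made up 4.45% of the arms and held 2.05% of the regions, 103 per Mb, beside 224 per Mb for the whole list over all arms. Regions per base were thus 0.0907 of the genome-wide level in CDS and 0.461 in 3' UTRs. For regions of the IDR list the ratios were lower, 0.00857 in CDS and 0.163 in 3' UTRs. The genome-wide level counts regions and sequence within 500 bp of start sites, which both classes leave out by rule. How much of the ratios this carries was not tested, and no test was made of the ratios themselves.

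The strongest CDS region lay in bif (bifocal, a cytoskeletal protein that binds actin), at chrX:11681526-11681965. Its signal was 182 in replicate 2 and 176 in replicate 3, and 365 in the merged list. The summit was in the second coding exon, 28 bp from the edge of that exon, and this exon is in all 5 annotated transcripts. The replicates differed little there. A weaker merged region of 42.5 overlapped it and also had its summit in bif CDS.

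The second CDS region lay in otp (orthopedia, a homeobox transcription factor) at chr2R:20884362-20884801. It had a signal of 111 in replicate 2, 161 in replicate 3 and 276 in the merged list. Its summit stood in the last coding exon, 129 bp before the end of the reading frame, and in all 9 transcripts. The replicates differed more here than at bif.

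The third, in CG10357 at chr3L:3616311-3616750, had 89.9 in replicate 2 and 78.3 in replicate 3, and its summit was 15 bp from the end of the coding sequence. Only 40.9% of this region was CDS, and the replicate 2 summit fell in 3' UTR. Ubr1, an E3 ubiquitin ligase that recognises destabilising N termini, held a region at chrX:16967361-16967800 with 79.1 in replicate 2 and 69.9 in replicate 3. Snx27, a sorting nexin of endosomes, held one at chrX:5737002-5737441 with 56.6 in replicate 2 and 77.9 in replicate 3. Ubr1 and Snx27 carried the summit in the first coding exon, at 56.7% and 63.2% GC within 100 bp of it, above the upper quartile of CDS members, 51.2%. Reph and CYLD, also with first-exon summits in the IDR list, had 29.9% and 32.8%, below the lower quartile of 40.4%.

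Of the remaining 5 CDS regions of the IDR list, CG31673 (chr2L:20830089-20830528) had 55.04 in replicate 2 and 67.33 in replicate 3. Reph (chr2L:3806593-3807032) had 54.4 in replicate 2 and 60.4 in replicate 3, with the summit 8 bp from the exon edge. CYLD, a deubiquitinase, had 60.9 in replicate 2 and 53.1 in replicate 3 at chr2L:10298965-10299404, with the summit 20 bp into the coding sequence. These values differed between replicates by less than the distance to the regions of bif and otp. CG1632 (chrX:8271763-8272202) had 51.4 in replicate 2 and 67.4 in replicate 3. It overlapped a stronger merged region and lay 574 bp from the start of Corp. The last, klar (klarsicht, which links nuclei to microtubules in nuclear migration), at chr3L:506033-506472, had 22.9 in replicate 2 and 44.5 in replicate 3 at the nearest summits. A second replicate 2 region overlapping it had 63.3, so the value for replicate 2 depends on which region is matched.

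The regions just outside the IDR list were Svil at 90.1, Ids at 76.5, Rac2 at 74.1, CG11668 at 74.1 and CG13086 at 72.7, while the lowest inside were CYLD at 112 and klar at 105. Svil encodes a supervillin-like actin-binding protein and Rac2 a small GTPase of the cytoskeleton. In replicate 2 these 5 regions had signals between 25.4 and 46.6, and in replicate 3 between 35.0 and 44.4. The CG13086 region lay beside a stronger merged region.

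The strongest 3' UTR region, in Ance-3 (related to angiotensin-converting enzyme) at chr2L:13955785-13956075, had 433 in replicate 2, 400 in replicate 3 and 838 in the merged list. Its whole length was 3' UTR. CG7872 at chrX:15579682-15579933 had 312 in replicate 2 and 351 in replicate 3, with the summit 46 bp from the end of the 3' UTR. The region in sv (shaven, a Pax2-type transcription factor) at chr4:1113222-1113468 had 311 in replicate 2 and 323 in replicate 3. At each of these 3 loci the value in either replicate exceeded that replicate's value at every CDS member.

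The sv summit lay 2 bp before the end of the longest sv 3' UTR that holds it, and annotated 3' UTR ran on past it. That summit was also inside a 3' UTR of Cals, a gene on the opposite strand. CG33307 had 246 in replicate 2 and 262 in replicate 3 at chr2L:13839937-13840086, and its summit also fell inside the gene CenG1A and in an intron of another transcript. CG4456 had 192 in replicate 2 and 226 in replicate 3 at chr3L:9373246-9373685. That summit was 531 bp from the start of Hsp22, a small heat shock protein gene which also covers it, so it passed the 500 bp limit narrowly. For these 3 summits the 3' UTR of the host gene was therefore not the only annotation present.

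NetB (Netrin-B, an axon guidance ligand) had 169 in replicate 2 and 211 in replicate 3, with a summit 1998 bp inside a 3' UTR of 5224 bp. Next came stas with 143 in replicate 2 and 191 in replicate 3, and then Tollo, a receptor of the Toll family, with 140 in replicate 2 and 156 in replicate 3. All 3 regions lay wholly in 3' UTR. The others of the strongest 15 were CG14440, CG5895, REG (a proteasome activator), CG9107, CG4004, Inx2 (an innexin of gap junctions) and CG9837, with merged signals between 211 and 285. Inx2 had 111 in both replicates, and CG4004 125 in both. CG4004 also carried a second, overlapping 3' UTR region of 188.

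**Figure D2:**
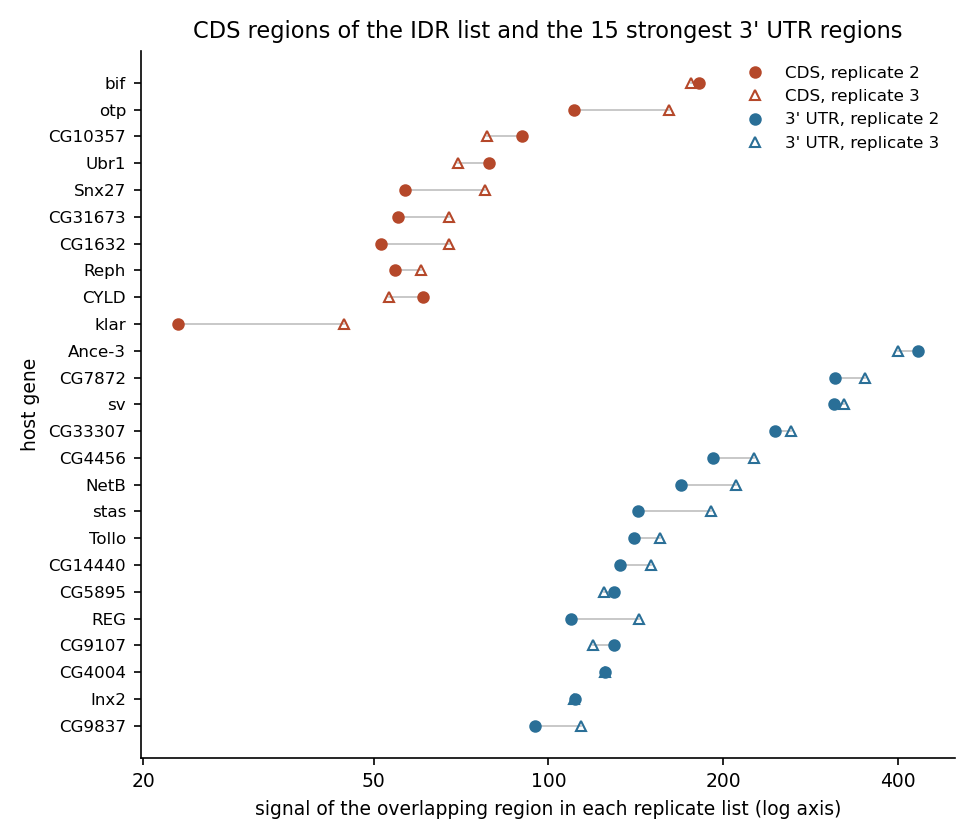
Signal (log axis) of the overlapping region in replicate 2 (filled circles) and replicate 3 (open triangles) for the 10 CDS regions of the IDR list (red) and the 15 strongest 3' UTR regions (blue), named by host gene. bif is at 182 and 176 and klar at 22.9 and 44.5 among CDS regions, and Ance-3 is at 433 and 400 among 3' UTR regions.

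At the edge of the IDR list, the last 3' UTR regions inside were Pde1c and MESK2, both at 103, and rst at 100.1. The first outside were D1 at 98.4, aay at 97.3 and CG1572 at 95.9. Inside and outside differed little in the replicates: rst had 46.2 in replicate 2 and 53.0 in replicate 3, and D1 had 40.2 in replicate 2 and 55.9 in replicate 3. rst encodes an adhesion protein of the immunoglobulin family, and D1 an AT-hook protein of satellite DNA.

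Presence in a replicate list was scored by an overlap of at least 1 bp. An overlapping region in both replicate lists was found for 138 CDS regions (36.5%, 31.8 to 41.5) and 317 3' UTR regions (51.5%, 47.5 to 55.4), beside 73.9% of all merged regions. CDS regions in replicate 2 alone numbered 97 (25.7%), in replicate 3 alone 109 (28.8%) and in neither 34 (8.99%). For 3' UTR regions the numbers were 123 (19.97%), 129 (20.9%) and 47 (7.63%). Over all merged regions these shares were lower, at 11.3%, 12.5% and 2.31%. The 34 and 47 members in neither list had merged signals of 38.0 at most, close to the floor. Absence from a list means below its floor, which was 15.1 in replicate 2 and 16.9 in replicate 3, and not that no DNA was recovered.

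The shares present in both lists moved with rank. In the stronger 15000 of the merged list, 22 of 23 CDS regions (95.7%) and 142 of 147 3' UTR regions (96.6%) were in both lists, beside 98.0% of all regions there. In the weaker 15000, it was 116 of 355 CDS regions (32.7%) and 175 of 469 3' UTR regions (37.3%), beside 49.8% of all. Within the IDR list every CDS region was in both lists, and so were all but 1 of the 61 3' UTR regions. The exception, in CG8206, had 64.8 in replicate 3 and no overlapping region in replicate 2. The gap between the classes was therefore smaller within each 15000 than over all members, but rank was not matched within them. In blocks of 3000 from rank 15001 on, the gap changed direction. CDS and 3' UTR shares were 85.3% and 76.3%, then 63.8% and 66.7%, then 33.9% and 39.8%. In the next block they were 24.2% and 17.6%, and in the weakest 7.14% and 14.9%. Over all regions the shares in these blocks were 85.0%, 67.5%, 46.8%, 30.3% and 19.1%. The class shares rest on 34 to 112 CDS and 59 to 121 3' UTR regions per block, and their differences were not tested.

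Among members present in both lists, Spearman's rho between the replicate signals was 0.396 for CDS (138 regions) and 0.705 for 3' UTR (317 regions), beside 0.816 over the whole list (22165 regions). These are descriptions across regions that share libraries, and CDS signals covered a narrower range, whose part in the lower value was not tested. The median signal of CDS members in their replicate was 20.2 in replicate 2 and 22.96 in replicate 3. For 3' UTR members it was 23.4 in replicate 2 and 24.9 in replicate 3. Replicate summits lay a median of 38 bp apart in CDS members and 35 bp apart in 3' UTR members, beside 31 bp over the whole list.

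**Figure D3:**
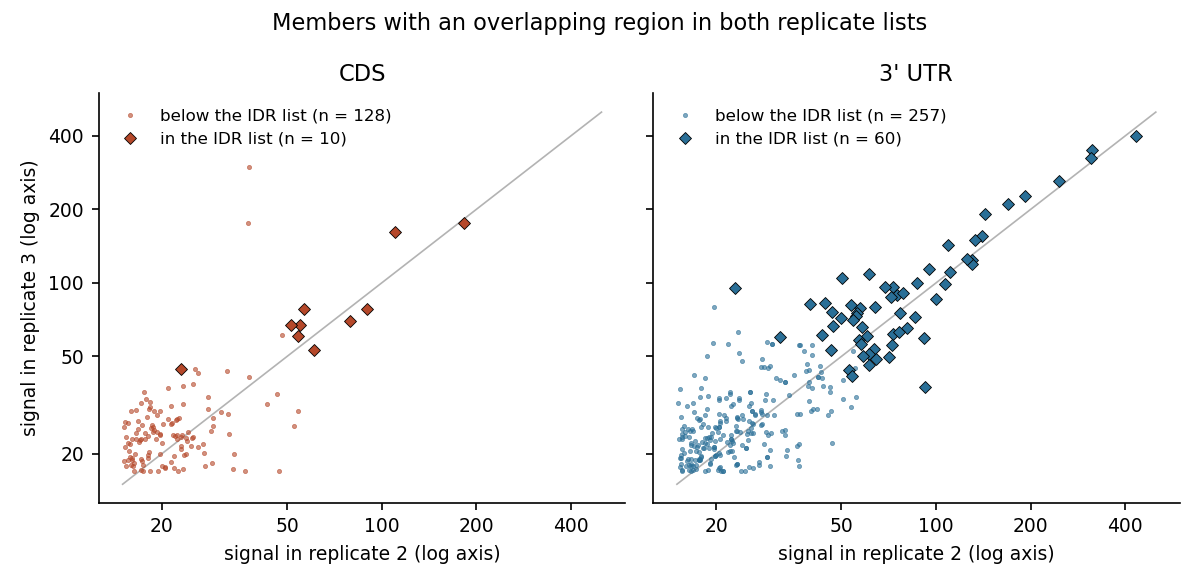
Signal in replicate 3 against signal in replicate 2 (both log axes) for members with an overlapping region in both lists, CDS left and 3' UTR right; diamonds are in the IDR list and the grey line marks equal values. Most of the 138 CDS points cluster near the list floors of 15.1 and 16.9, and the 317 3' UTR points extend to 433 and 400; 2 CDS points with replicate 3 values of 176 and 297 share their replicate region with a stronger neighbour.

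The small shift between summits changed the class more often in CDS. In 95 of 138 CDS members (68.8%) both replicate summits were also in CDS, and in 279 of 317 3' UTR members (88.0%) both were in 3' UTR. The annotated blocks also differed in size. The coding exon holding a CDS summit had a median length of 395 bp, against 825 bp for eligible CDS bases, while the 3' UTR around a summit had a median length of 1605 bp, against 1491 bp for eligible 3' UTR bases.

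CDS summits lay near exon edges more often than CDS bases do. Of them 135 (35.7%, 31.0 to 40.7) were within 50 bp of an edge of the coding block, while 20.7% of eligible CDS bases were. In the IDR list it was 6 of 10, with a median distance of 35.5 bp. Of 3' UTR summits 76 (12.3%, 9.97 to 15.2) were within 50 bp of an edge, against 14.3% of bases, and 14 of 61 (22.95%) in the IDR list. Almost all members spanned 440 bp, namely all 378 CDS and 611 of 616 3' UTR regions, and a region of that width often reached past the exon. The median CDS region was 73.8% CDS and 84 were wholly CDS, none of them in the IDR list. The median 3' UTR region was 100% 3' UTR and 375 were wholly so.

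By exon, 54 CDS summits were in the first coding exon, 199 in an internal one, 98 in the last and 27 in the coding part of genes with a single coding exon. Along the reading frame, divided in 5 equal parts, the counts were 81, 56, 74, 81 and 86. The first part held 21.4% of CDS summits and 12.8% of eligible CDS bases. In the IDR list, 6 of 10 CDS summits were in that first part. Along the 3' UTR the counts were 85, 111, 123, 145 and 152, so that the last part held 24.7% of summits and 18.8% of bases. In the IDR list 20 of 61 3' UTR summits were in the last part.

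Most CDS summits (308, 81.5%) were in coding sequence of every transcript of the gene, whereas 238 3' UTR summits (38.6%) were in every transcript. An intron of some transcript covered 68 CDS summits (18.0%; 12.8% of bases) and 115 3' UTR summits (18.7%; 17.9% of bases). A gene on the opposite strand covered 36 CDS and 51 3' UTR summits. Annotated transposable elements overlapped 2 CDS (0.529%) and 13 3' UTR regions (2.11%), beside 1.64% of all merged regions, at any position and not only at the summit. The nearest start site was 1544 bp away from CDS summits and 2472 bp from 3' UTR summits (medians), and it belonged to the host gene in 63.0% of CDS and 34.4% of 3' UTR cases. Over the whole list, where the 500 bp limit did not apply, the median distance was 2442 bp.

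Summits in CDS and 3' UTRs stood on either side of the 500 bp limit. Between 401 and 500 bp from a start site there were 34 CDS summits (1 in the IDR list) and 18 3' UTR summits (7 in the IDR list, the highest at 894). Between 501 and 600 bp there were 25 CDS summits (1 in the IDR list) and 21 3' UTR summits (3 in the IDR list). Of all merged regions 28.0% were in the IDR list. Median signal in the nearer and the farther interval was 34.3 and 36.4 for CDS, and 66.3 and 55.5 for 3' UTR summits. A stronger merged region overlapped 35 CDS (9.26%) and 60 3' UTR members (9.74%), beside 14.0% of the whole list.

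Base composition separated the classes in opposite directions. Within 100 bp of the summit, CDS members had 46.3% ± 7.44 GC (SD over regions, n = 378), against 42.3% ± 6.60 in the flanks 500 bp to either side, a difference of 3.96 percentage points. The 3' UTR members had 35.5% ± 6.63 (n = 616), against 39.6% ± 7.62 in their flanks, a difference of -4.07. Over the whole list the difference was -6.08. GC at the summit was below that of the flanks in 127 CDS members (33.6%) and 400 3' UTR members (64.9%), beside 72.4% of all regions.

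Set against their own kind of sequence, the CDS summits were low in GC: eligible CDS windows averaged 51.9% ± 7.14. Eligible 3' UTR windows averaged 35.9% ± 7.60, close to the 3' UTR summits. In the IDR list, CDS summits had 45.5% ± 11.2 (n = 10) against 41.4% in flanks, and 3' UTR summits 35.1% ± 7.42 (n = 61) against 42.5% ± 6.61. Individual CDS regions spread widely, with Reph at 29.9% and Snx27 at 63.2%. Exon flanks fall partly in introns, and the share of the difference this carries was not tested.

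**Figure D4:**
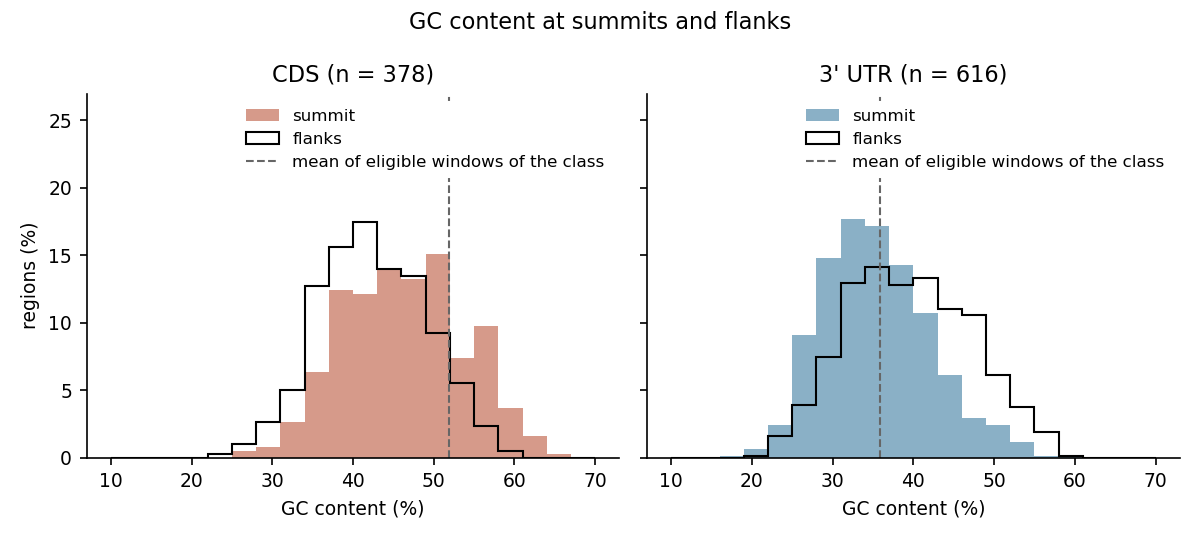
GC content (%) within 100 bp of the summit (filled) and in flanks 500 bp away (outline) for 378 CDS (left) and 616 3' UTR members (right), as percent of regions; the dashed line is the mean of eligible windows of the class. CDS summits average 46.3% against 42.3% in flanks and a class mean of 51.9%; 3' UTR summits average 35.5% against 39.6% and 35.9%.

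Windows reaching 100 bp to either side of the summit were read on both strands for short motifs. The polyadenylation signal AATAAA was found in 20.1% of CDS windows (32.7% of their flanks) and 44.6% of 3' UTR windows (39.2% of flanks), beside 46.3% of all regions. TATAAA, the TATA box, was found in 16.1% of CDS and 35.4% of 3' UTR windows, beside 33.3% of all. AATATA was in 18.8% of CDS and 41.2% of 3' UTR windows, beside 35.5% of all. These 3 words hold only A and T, overlap in part, and were rarer in the class with the higher GC.

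CAGTGC was in 13.2% of CDS windows (10.2 to 17.0; 7.80% of flanks) and 10.1% of 3' UTR windows (7.93 to 12.7; 8.44% of flanks), beside 14.0% of all regions. CACACA was in 8.73% of CDS windows (11.1% of flanks) and 25.2% of 3' UTR windows (17.8% of flanks), beside 16.0% of all. GATAA, the core read by GATA factors, was in 33.6% of CDS and 33.9% of 3' UTR windows, beside 37.8% of all regions. GAGAG, the core of the GAGA element, was in 19.3% of CDS and 19.6% of 3' UTR windows, beside 20.5% of all. For both motifs the intervals of CDS and 3' UTR overlapped. TATCGATA, the DRE, was in 2 CDS (0.529%) and 6 3' UTR windows (0.974%), beside 1.20% of all regions. CAGCAGCAG was in 10 CDS windows (2.65%; 2.51% of flanks) and 8 3' UTR windows (1.30%; 2.11% of flanks), beside 1.07% of all. A match is only letters in a window.

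CDS members were unevenly spread over the chromosome arms. Chromosome 4 held 25 CDS members, 98.0 per Mb of eligible CDS, while the other arms together had 19.2 per Mb, between 12.0 on X and 22.9 on 2L. The same density was 110 per Mb on chromosome 4 and 23.4 elsewhere in the replicate 2 list, and 106 and 22.7 in the replicate 3 list. For 3' UTR members chromosome 4 had 103 per Mb and the other arms together also 103. That chromosome 4 value rests on 10 members, of which 2 were in both replicate lists. The 3' UTR density was 92.9 on chromosome 4 and 105 elsewhere in the replicate 2 list, and 72.2 and 106 in the replicate 3 list. All merged regions together had 182 per Mb on chromosome 4, the lowest of the arms, which ranged up to 243. The 25 CDS members of chromosome 4 had a median signal of 34.4, against 35.1 in the 353 CDS members of the other arms. None of the 25 was in the IDR list, against 10 of the 353, and 6 (24%) were in both replicate lists, against 37.4% on the other arms; no test was made. Their GC at the summit was 38.2% ± 5.58 (SD, n = 25), against 46.9% ± 7.23 in CDS members of the other arms.

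**Figure D5:**
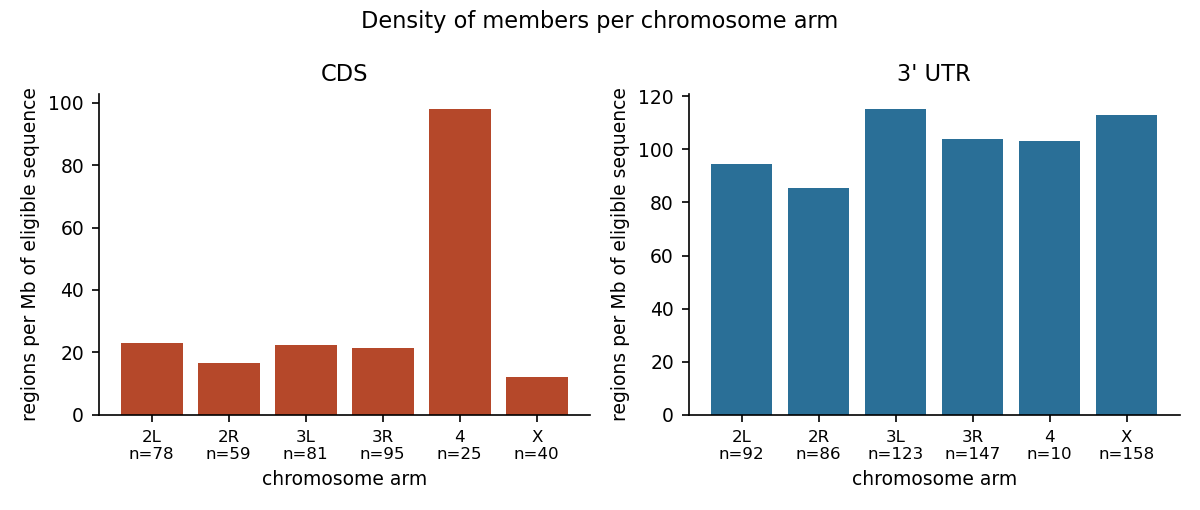
Members per Mb of eligible CDS (left) and eligible 3' UTR (right) for each chromosome arm, from the merged list, with the number of members under each arm. The CDS bar of chromosome 4 stands at 98.0 per Mb, and the other arms lie between 12.0 and 22.9; the 3' UTR bars lie between 85.2 and 115.

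X had 12.0 CDS members per Mb, the lowest of the arms, and 237 merged regions of all kinds per Mb. It held 4 of the 10 CDS members of the IDR list. It had 158 3' UTR members, 113 per Mb, and 21 of the 61 of the IDR list. On 3R, 95 CDS members included none of the IDR list, and all merged regions together had 218 per Mb.

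CDS members lay in 348 host genes and 3' UTR members in 497, of 13945 protein-coding genes, and 42 genes had members of both classes. A single CDS member was found in 326 genes, and 416 genes had a single 3' UTR member. The genes with the most CDS members were apolpp (the precursor of the lipid carrier lipophorin) with 5, CG33978 with 4, bt (bent, the giant muscle protein projectin) with 4 and Cda5 (a chitin deacetylase) with 3. The first 3 of these are on chromosome 4. The 5 regions of apolpp had merged signals between 33.8 and 52.1, and 3 of them were in both replicate lists. At its strongest, apolpp had 17.7 in replicate 2 and 33.5 in replicate 3. None of the bt regions was in both lists.

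Among 3' UTR hosts, mub (an RNA-binding protein) led with 7 regions, the strongest at 84.0 with 53.5 in replicate 2 and 31.0 in replicate 3. Lsd-2, a perilipin of lipid droplets, had 4, of which 2 were in the IDR list. These had 71.9 and 39.9 in replicate 2 and 87.6 and 82.1 in replicate 3. CG32767, chrb, aqz, Octbeta1R, CG32447, Glut4EF and Rbp6 also had 4 each.

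In gene groups listed by symbol, counting every gene at a summit, 816 of 13945 protein-coding genes (5.85%) had a member. In the housekeeping groups it was 3 of 92 cytosolic ribosomal protein genes, 1 of 73 mitochondrial ribosomal protein genes, 3 of 52 translation factor genes, 1 of 48 proteasome genes, and 0 of 80 oxidative phosphorylation and 0 of 111 replication histone genes. RpS26 carried a 3' UTR member of the IDR list at chr2L:18441166-18441605, with 54.6 in replicate 2 and 70.3 in replicate 3, and mRpS5 another, with 57.8 in replicate 2 and 56.1 in replicate 3. Eligible length per gene was not matched between groups.

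Further groups, also listed by symbol, were counted in the same way. Of 19 ecdysone regulators 3 had members, all outside the IDR list: Hr3, EcR (the ecdysone receptor) and Eip93F. EcR had a 3' UTR member with 36.5 in replicate 2 and 18.9 in replicate 3 and a CDS member with 23.2 and 23.8. Of 120 cuticle genes 7 had members, of 25 muscle genes 6, of 23 heat shock genes 2 and of 22 glue and Eig71E genes 0. Of 8 Hox genes only Ubx had one, a 3' UTR region of 30.9 seen in replicate 3 alone. Of 179 chemoreceptor genes 10 had members, 9 of them in CDS. CG10631 itself had none.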

How the data were processed

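ChIP-seq region lists on dm6 were analysed: a merged list, the list that passed IDR and 1 list per replicate (n = 2). The signal of each region is the authors' value, deposited in the peak caller's units, and the merged list was called on both replicates together, per the deposited readme. No source used here gives the aligner, the caller, its filters or the IDR threshold, and read depth is unknown. dm3 lists were not used. From the lists, summits were placed on the BDGP6 annotation (version 54, Ensembl release 115) with Python 3.11.15, pandas 2.3.3 and numpy 2.4.6. Presence was an overlap of 1 bp, with values taken from the region of nearest summit. GC and motifs used windows of 100 bp to either side of the summit. Only the steps that assign class, presence and overlap with a stronger region were checked on simulated data. Shares have Wilson 95% intervals, which cover counting error only. With 1 group, no test was made. Members and lists were chosen with earlier results of these data known. Named genes were the IDR-listed CDS regions, the 15 strongest 3' UTR regions, those next to the IDR limit, the genes with most members, and the strongest of each gene group. Alternatives were other distances to start sites, class orders, overlap rules, windows and members taken from each replicate's own list.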

Additional observations from a re-analysis of the deposited data

How the results depend on the processing

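Over all settings, the reported one included, CDS stayed below 3' UTR in share of the merged list (9 of 9), share in the IDR list (10 of 10), median signal (9 of 9) and presence in both lists (11 of 11), and above it in GC (10 of 10). Of 88 alternative values, 51 moved by at least the SD of the values from the 2 replicate lists. The Wilson intervals did not enter this rule. For the 3' UTR share of the merged list that SD was only 0.00471 percentage points, so small changes counted as moved. CDS share of the merged list was 1.59% with start sites at 250 bp, 0.883% at 1000 bp, 1.21% with 3' UTR before CDS, 1.22% without 5' UTR summits, 1.03% without intron summits and 1.33% with the strongest region per stretch (25733 kept). The 3' UTR share under these was 2.24%, 1.73%, 2.10%, 2.04%, 1.67% and 2.16%. With IDR membership by overlap, 5.03% of CDS and 11.5% of 3' UTR regions were in the IDR list, and with start sites at 250 bp 11.4% of 3' UTR regions.

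Presence in both lists was 37.2% for CDS and 54.2% for 3' UTR at 250 bp, 37.0% and 48.8% at 1000 bp, 35.8% and 50.5% without intron summits, and 32.9% and 48.0% per stretch. It was 27.2% and 37.0% by summits within 100 bp, and 32.8% and 45.8% by 50% reciprocal overlap. For 3' UTR with that class first it was 51.1%. Mean GC was 47.3% for CDS and 35.2% for 3' UTR within 50 bp. CDS GC was 46.8% at 1000 bp, and 3' UTR GC 35.3% at 250 bp, 35.7% with 3' UTR first and 35.3% without intron summits.

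In a further setting, members came from a single replicate's own list. The other replicate still entered the IDR list and the presence score, so those values are not a check without it. CDS share was then 1.48% to 1.52%, overlap with the IDR list 4.06% to 4.81% and GC 46.2% to 46.5%. Median CDS signal was 18.2 to 20.2, on a scale not comparable with the merged list. Overlap with the other replicate's list was 32.8% to 33.4%. For 3' UTR the share was 2.09% to 2.10% and overlap with the IDR list 11.5% to 12.6%. Median 3' UTR signal was 20.3 to 22.2, and overlap with the other replicate's list 52.1% to 52.6%. No paired analysis was possible because the 2 replicates belong to a single group. Depth is unknown, so how far it limits the weak regions could not be measured.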
